A study of Mus musculus with 33 samples.

Results

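E2F factors are DNA-binding proteins that switch on the genes of S-phase entry, and pocket proteins hold them in check. The family was taken as the rows of the table named E2f1 to E2f8, Rb1 and Rbl1, which gave 10 genes of 21671. In resting cells pocket proteins bind E2F factors and keep their targets silent. Cyclin D and cyclin E kinases phosphorylate the pocket proteins in G1, which frees the E2F factors. E2f1, E2f2 and E2f3 are classed as activators, E2f4 and E2f5 as partners of the pocket proteins in resting cells, E2f6 as a repressor that works through Polycomb proteins, and E2f7 and E2f8 as atypical repressors that bind DNA without a dimer partner and are known for their part in hepatocyte polyploidy.

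RNA was sequenced from livers and liver nodules of C57BL/6 mice in a study of how MYC and β-catenin cooperate in the liver. In the short-term arm every mouse, controls included, received AAV8-TBG-CRE, a virus whose hepatocyte promoter drives Cre recombinase, at an age of 6 to 8 weeks, and livers were taken on day 4. The 4 groups of 5 livers were WT, beta-cat Ex3 (a β-catenin allele that loses exon 3 under Cre), R26-lslMYC (MYC behind a Cre-removable stop at Rosa26) and R26-lslMYC/beta-cat Ex3, here called wild-type, Ex3, MYC and MYC+Ex3. In the tumour arm 3 nodules came from mice with Alb-CreERT2 and R26-lslMYC and 3 from mice that also carried beta-cat Ex3. Alb-CreERT2 is a Cre expressed in hepatocytes that 4-hydroxytamoxifen (4-OHT) activates. The labels give no treatment or age for the nodules. Their controls were 7 livers of WT mice on day 4 after 4-OHT, whose labels name no Cre, no age and no transgene. Nodules were therefore compared with livers that differ in time and genotype as well as in growth, and these cannot be told apart. The labels do not say that samples of a group came from separate mice, so p-values measure only the spread between these samples, which may be technical.

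Levels are RPKM, in which a read count is scaled by gene length and library size. Their scale differed between the arms, so they are compared only within an arm. Short-term libraries held 3.75 to 7.31 M reads in genes and tumour-arm libraries 6.65 to 9.82 M. Of the short-term livers, 10 carried keratinocyte transcripts, with Krt5, Krt14 and Krt17 summing to 3.95 to 23.8 RPKM against at most 0.4 in the others. The labels give no such division. Of the 5 MYC livers 1 was keratin-bearing, and of each other short-term group 3. The title numbers of the short-term livers fall into series by their first 3 digits, and the labels do not say what these stand for. The 6 livers of series 238 (1 wild-type, 2 Ex3, 1 MYC and 2 MYC+Ex3) were all keratin-free and male. Values with these series as a block, or outside series 238, were added after seeing the data. Males, read from Xist and Ddx3y, were 2, 3, 3 and 4 of 5 in the wild-type, Ex3, MYC and MYC+Ex3 livers, 4 of 7 in the 4-OHT livers, and 3 of 3 and 2 of 3 in nodules without and with Ex3. MYC liver replicate 5 held both Xist (86.1 RPKM) and Ddx3y (4.74 RPKM), whereas no other library with high Xist exceeded 0.134 RPKM of Ddx3y. Without it the 6 members called in MYC livers became 7, with E2f6 at a log2 change of 0.44 (limma adjusted p = 0.0433). Hepatocyte markers were detected at 1.16e+03 RPKM or more in sum in each short-term library and at 194 RPKM or more in each of the tumour arm. Bulk RNA cannot tell fewer cells of a type from less RNA per cell. The targeted genes gave no check of the labels, since the table does not separate transgene from endogenous Myc or the deleted exon of Ctnnb1. Myc differed from wild type by a log2 change of 0.55 (limma adjusted p = 0.208) in MYC livers and 0.51 (limma adjusted p = 0.243) in MYC+Ex3 livers.

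The members differed widely in mean level in wild-type livers. E2f8 averaged 12.8 RPKM, E2f6 12.1, E2f5 11.7 and E2f4 11.1, and neighbours in this order overlapped between livers. Rb1 followed at 6.76 RPKM and E2f3 at 5.05, and these also overlapped. E2f1 averaged 2.15 RPKM. Its highest liver (4.36 RPKM) lay just below the lowest of E2f3 (4.43 RPKM) and above the lowest of E2f8 (3.59 RPKM). Rbl1 stood at 1.6, E2f2 at 0.813 and E2f7 at 0.512 RPKM. Among E2f4, E2f5, E2f6 and E2f8, E2f8 was the most variable, from 3.59 to 20.4 RPKM across the 5 wild-type livers. In MYC livers E2f4 led at 20.4 RPKM, E2f3 had passed E2f8 (12 against 8.74 RPKM, overlapping), and E2f7 remained last at 0.872 RPKM, with no overlap with Rbl1 above it.

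**Figure D1:**
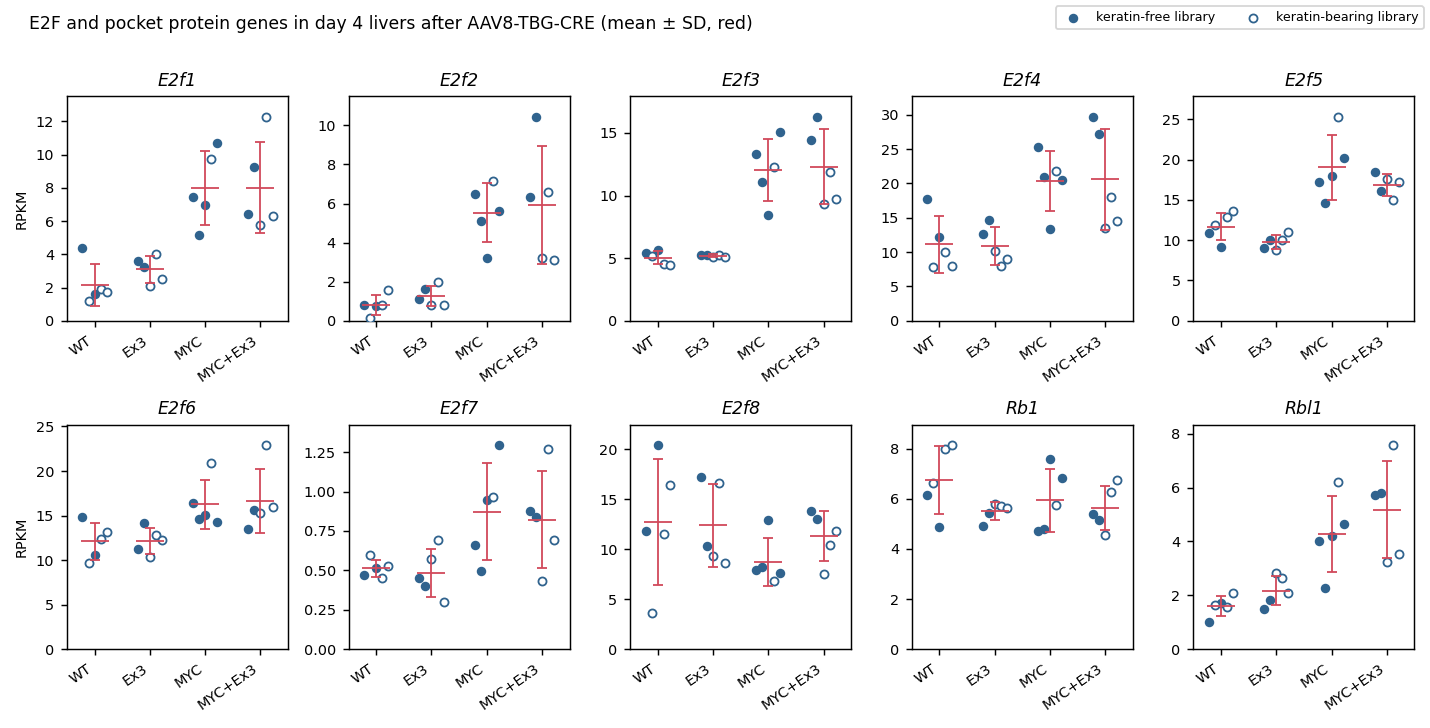
RPKM of each member (y axis, from 0) in the 20 short-term livers, by group (x axis), with filled points for keratin-free and open points for keratin-bearing libraries and red bars for mean ± SD of 5 livers. E2f1, E2f2, E2f3, E2f5 and Rbl1 of all MYC and MYC+Ex3 livers lay above all wild-type livers, whereas E2f8 and Rb1 overlapped with them in each group.

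The first question was how the family responds on day 4 of MYC activation. E2f1, E2f2, E2f3, E2f4, E2f5 and Rbl1 rose in MYC livers, and no member fell. These were 6 of the 9 members that could be tested, with a gene called at a limma adjusted p under 0.05 over all 13688 genes tested, and 22.3% of those genes were called (16.9% higher, 5.36% lower). The members tested had a median log2 change of 0.85 against 0.07 for all genes. Over all genes 2313 were higher and 734 lower, and after rescaling of each library by its median ratio 1869 were higher and 1334 lower. E2f7 did not pass the filter on low values, so the members tested are not the whole family.

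E2f2 had the steepest rise of the activators. Wild-type livers had 0.784, 0.142, 0.765, 0.781 and 1.59 RPKM of E2f2 (3 to 33 reads), and MYC livers 6.5, 5.11, 3.22, 7.16 and 5.64 RPKM (67 to 179 reads). The ranges did not overlap, and the means stood 6.8-fold apart. How many of all genes had ranges apart between groups was not counted, here or for the other members. The change was 1.86 ± 0.27 on the log2(RPKM + 1) scale (SE, limma adjusted p = 4.85e-05), a scale that understates changes of low genes. In the authors' deposited table it was 2.23. E2f1, which can also drive apoptosis, had 4.36, 1.2, 1.58, 1.9 and 1.71 RPKM in wild-type livers and 7.44, 5.16, 6.97, 9.71 and 10.7 RPKM in MYC livers. The ranges were again apart, with a log2 change of 1.55 ± 0.241 (SE, limma adjusted p = 9.84e-05), although wild-type replicate 1 stood above the other wild-type livers. E2f3 was the steadiest of the activators, at 5.43, 5.21, 5.66, 4.5 and 4.43 RPKM in wild-type livers and 13.3, 11.1, 8.46, 12.3 and 15.1 in MYC livers. Its log2 change was 1.09 ± 0.152 (SE, limma adjusted p = 3.35e-05). The summed level of the activators rose from 8.01 ± 1.54 to 25.6 ± 5.38 RPKM (SD, n = 5), with no overlap between the groups.

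E2f3 has a pair of annotated start sites, and its upstream sequences are shown because they differ in the words that MYC and E2F proteins are known to bind. The promoter sequences are RefSeq's, on GRCm38.p6, were matched by symbol for 7 of the 10 members (not E2f4, E2f5 or Rb1), and give the 250 bases before the start, 5′ to 3′ on the minus strand in each case. Each window of 250 bases before to 50 after a start was searched on both strands for the E-box CACGTG and for the E2F words TTTCGCGC, TTTGGCGC, TTTCCCGC and TTTGCCGC. Capitals mark the matches. Starts are numbered by coordinate, so on the minus strand E2f3 start 2 lies upstream of start 1. The first E2f3 start (chr13:29984392-29984641) has an E-box 24 bases before it, and the second (chr13:29986064-29986313) an E2F word 11 bases before it, read on the other strand as TTTCCCGC. Positions are those of the leftmost base of the word.
E2f3 start 1: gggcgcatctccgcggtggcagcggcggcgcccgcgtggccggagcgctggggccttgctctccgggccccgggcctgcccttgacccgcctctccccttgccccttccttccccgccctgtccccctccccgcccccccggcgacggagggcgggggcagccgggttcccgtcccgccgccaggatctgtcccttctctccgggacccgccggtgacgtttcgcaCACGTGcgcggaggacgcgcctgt
E2f3 start 2: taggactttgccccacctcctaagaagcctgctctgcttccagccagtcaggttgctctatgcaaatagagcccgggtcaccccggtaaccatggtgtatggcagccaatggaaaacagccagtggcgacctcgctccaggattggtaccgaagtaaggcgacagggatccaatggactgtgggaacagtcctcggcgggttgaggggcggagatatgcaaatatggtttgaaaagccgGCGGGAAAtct

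An E-box was present in 7.15% and an E2F word in 2.26% of 32851 such windows in the table. E2f2 held an E2F word 40 bases after the first of its starts and E2f7 one 198 bases before its start. The windows matched to E2f1 and E2f6 held neither word. Whether the start matched to E2f1 is its main one was not checked. Sequence outside the windows was not searched, so these genes may hold such words elsewhere. The table of values has 1 row per gene, so the transcripts from the E2f3 starts were not measured apart.

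E2f4 and E2f5, the partners of pocket proteins in resting cells, also rose. E2f5 went from 10.9, 11.9, 9.14, 12.8 and 13.6 RPKM in wild-type to 17.2, 14.6, 18, 25.3 and 20.2 RPKM in MYC livers. The groups did not overlap, and the log2 change was 0.65 ± 0.131 (SE, limma adjusted p = 0.00119). E2f4 went from 17.7, 7.77, 12.2, 10 and 7.9 to 25.3, 21, 13.4, 21.8 and 20.5 RPKM, and here MYC replicate 3 lay below the highest wild-type liver. Its log2 change was 0.85 ± 0.241 (SE, limma adjusted p = 0.0148). E2f4 also moved with the keratin-bearing libraries, averaging 14.9 RPKM in the 2 keratin-free and 8.56 RPKM in the 3 keratin-bearing wild-type livers. Within keratin-free livers alone its change was 0.39 and was not called (limma adjusted p = 0.339), whereas E2f1, E2f2, E2f3, E2f5 and Rbl1 passed there too, with changes of 1.16, 1.75, 0.96, 0.74 and 1. With keratin as a covariate the change of E2f4 was 0.63 and was called (limma adjusted p = 0.0175). The 1 keratin-bearing MYC liver had 21.8 RPKM, against 7.77 to 10 RPKM in the 3 keratin-bearing wild-type livers. A group of 1 was not compared within keratin-bearing livers. E2f4 was also highest, in each short-term group, in the livers whose title numbers begin with 238, at 17.7 RPKM in the 1 wild-type and 25.3 RPKM in the 1 MYC liver. With the title number series as a block its change was 0.70 (limma adjusted p = 0.0104), and outside the 238 series it was 0.94 (limma adjusted p = 0.00352).

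E2f6, the Polycomb-associated member, had 12.1 ± 2.04 RPKM in wild-type and 16.2 ± 2.71 in MYC livers (SD, n = 5). The groups overlapped, and its log2 change of 0.40 did not pass (limma adjusted p = 0.0545). It passed with keratin as a covariate (0.44, limma adjusted p = 0.0337) and with a filter at RPKM 5 (limma adjusted p = 0.0449), and was 0.25 with the title number series as a block (limma adjusted p = 0.38).

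Neither atypical repressor was called in MYC livers. E2f8 had 11.8, 3.59, 20.4, 11.5 and 16.5 RPKM in wild-type and 7.94, 8.24, 13, 6.87 and 7.66 RPKM in MYC livers. The groups overlapped, and the log2 change of -0.36 was within the spread between livers (95% interval -1.01 to 0.29, limma adjusted p = 0.442). Without wild-type replicate 2, the lowest of its group, the change was -0.72 and passed (limma adjusted p = 0.0377), and without wild-type replicate 3, the highest, it was -0.16 (limma adjusted p = 0.759). E2f7 had 0.512 ± 0.0561 RPKM in wild-type and 0.872 ± 0.308 in MYC livers (SD, n = 5; 19 to 75 reads). Its two-sided exact permutation p was 0.0317, and 0.148 after Benjamini-Hochberg adjustment over the 8 comparisons of E2f7 (exact permutation, smallest possible p 0.00794). The ratio of summed activators to summed E2f7 and E2f8 went from 0.773 ± 0.479 to 2.84 ± 0.967 (SD, n = 5) and overlapped in part, with a highest wild-type value of 1.57 and a lowest MYC value of 1.34. The E2f8 promoter, shown as that of a member with no called rise in short-term livers (chr7:48881597-48881846), held neither an E-box nor an E2F word. It held the cell cycle word TTTGAA on the other strand, 20 bases before the start, as did 17.9% of all windows on either strand. The same word stands 23 bases before the second E2f3 start and 31 bases before the second E2f2 start.
E2f8: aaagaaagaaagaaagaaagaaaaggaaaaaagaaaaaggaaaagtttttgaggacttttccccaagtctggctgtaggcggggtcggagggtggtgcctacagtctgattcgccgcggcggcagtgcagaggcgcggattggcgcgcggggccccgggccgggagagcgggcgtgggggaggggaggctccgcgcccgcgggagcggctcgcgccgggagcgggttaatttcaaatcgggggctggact

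The pocket proteins parted. Rbl1, the gene of p107, which is itself an E2F target, had 1.02, 1.62, 1.71, 1.56 and 2.09 RPKM in wild-type and 4.03, 2.27, 4.21, 6.21 and 4.64 RPKM in MYC livers. The groups did not overlap, and the log2 change was 0.99 ± 0.213 (SE, limma adjusted p = 0.00218). Rb1, the gene of the retinoblastoma protein, stayed between 4.73 and 8.14 RPKM in both groups, with a log2 change of -0.16 (95% interval -0.47 to 0.15, limma adjusted p = 0.473). Rbl2, the gene of p130 and the remaining pocket protein, went from 17.8 ± 2.64 to 12.1 ± 3.35 RPKM (SD, n = 5) and fell by 0.55 on the log2 scale (limma adjusted p = 0.0146). The fall of Rbl2 was not called within keratin-free livers (-0.34, limma adjusted p = 0.282) or when only wild-type and MYC livers were fitted (limma adjusted p = 0.0774). It was called with keratin as a covariate (-0.62, limma adjusted p = 0.00546), and not with the title number series as a block (-0.39, limma adjusted p = 0.221) or outside the 238 series (-0.59, limma adjusted p = 0.0576). The ratio of summed activators to summed pocket protein transcripts was 0.315 ± 0.101 in wild-type and 1.17 ± 0.3 in MYC livers (SD, n = 5), with no overlap. The Rbl1 promoter (chr2:157204535-157204784), shown because it too holds an E2F word, carries it 18 bases before the start.
Rbl1: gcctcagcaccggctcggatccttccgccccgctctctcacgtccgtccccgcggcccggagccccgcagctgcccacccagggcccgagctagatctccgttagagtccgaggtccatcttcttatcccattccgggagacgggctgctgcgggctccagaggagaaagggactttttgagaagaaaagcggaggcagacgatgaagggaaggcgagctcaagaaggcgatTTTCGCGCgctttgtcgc

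β-catenin activation was asked about alone and on top of MYC. In Ex3 livers 0 of the 9 members tested passed, where 0.132% of genes did (18 of 13688 by limma at an adjusted p under 0.05, with 744 at an unadjusted p under 0.05). All 9 overlapped with wild type. E2f1 had 3.57, 3.23, 2.08, 4.05 and 2.53 RPKM in Ex3 livers, within the wild-type range only through wild-type replicate 1 (4.36 RPKM). The remaining wild-type livers had 1.2 to 1.9 RPKM, below every Ex3 liver. The log2 change of E2f1 was 0.43 (limma adjusted p = 0.985), and leaving out any 1 library left 0 members called. E2f2 had 1.14, 1.6, 0.808, 1.96 and 0.799 RPKM, of which 2 lay above the highest wild-type liver. In MYC+Ex3 against MYC livers 0 members passed, where 0.19% of genes did (26 of 13688, with 461 at an unadjusted p under 0.05). The authors' deposited table also called 0 members in either comparison. The interaction of MYC and Ex3 was called for 0 genes of 13688 (132 at an unadjusted p under 0.05), so 0 members and 0% of genes. For MYC+Ex3 minus MYC the 95% intervals on the log2 scale ran from -0.51 to 0.49 for E2f1, from -0.55 to 0.58 for E2f2 and from -0.30 to 1.00 for E2f8, so differences of those sizes are not excluded.

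In MYC+Ex3 livers 7 members were higher than in wild type, where 24.1% of genes were called (17.9% higher, 6.18% lower). They were E2f1 to E2f6 and Rbl1. This comparison and that of MYC livers share their wild-type libraries. E2f1 had 6.44, 9.29, 5.79, 12.3 and 6.28 RPKM, E2f2 had 6.33, 10.4, 3.21, 6.58 and 3.11, and E2f3 had 14.4, 16.3, 9.3, 11.9 and 9.71. All lay above the wild-type livers, with log2 changes of 1.54, 1.87 and 1.11 (limma adjusted p = 8.1e-05, 3.25e-05 and 1.85e-05). E2f4 changed by 0.83 (limma adjusted p = 0.0164), and passed within keratin-free (0.91) and keratin-bearing (0.77) livers alike. It lost its call without MYC+Ex3 replicate 1 or 2. E2f5 changed by 0.50 (limma adjusted p = 0.00821), and was not called within keratin-bearing livers (0.35, limma adjusted p = 0.0834) or outside the 238 series (0.46, limma adjusted p = 0.135). Rbl1 changed by 1.21 (limma adjusted p = 0.00028) and Rb1 by -0.22 (limma adjusted p = 0.292). Rbl2 changed by -0.26 (limma adjusted p = 0.227), and by -0.36 in the authors' deposited table, with an adjusted p of 0.0516.

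The call of E2f6 in MYC+Ex3 livers was near its limit. Its log2 change was 0.42 (limma adjusted p = 0.0397), with 13.5, 15.6, 15.3, 22.9 and 15.9 RPKM against 14.8, 9.68, 10.6, 12.3 and 13.2 RPKM in wild type. The groups overlapped, and 1 liver, MYC+Ex3 replicate 4, stood above the rest. Without it the change was 0.31 (limma adjusted p = 0.12). The call was lost in 7 of 11 other settings, among them sex as a covariate (0.35, limma adjusted p = 0.0942), keratin-free livers alone (0.20, limma adjusted p = 0.486), keratin-bearing livers alone (0.57, limma adjusted p = 0.056) and the title number series as a block (0.33, limma adjusted p = 0.187). In the authors' deposited table E2f6 had an adjusted p of 0.1.

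Against Ex3 livers, MYC+Ex3 livers had 6 members higher, where 21.1% of genes were called (16.4% higher, 4.7% lower). The log2 changes were 1.11 for E2f1, 1.54 for E2f2, 1.08 for E2f3, 0.82 for E2f4, 0.73 for E2f5 and 0.93 for Rbl1. The call of E2f4 was lost without Ex3 replicate 4 or without MYC+Ex3 replicate 1 or 2. E2f1 was not called within keratin-free livers (0.99, limma adjusted p = 0.0908). E2f2 (1.26, limma adjusted p = 0.0505) and Rbl1 (0.65, limma adjusted p = 0.139) were not called within keratin-bearing livers. Outside the 238 series, with 3 livers a group, 3 members were called, E2f1, E2f2 and E2f3, where 754 of 13444 genes were higher and 26 lower. E2f4 (0.70, limma adjusted p = 0.0732), E2f5 (0.69, limma adjusted p = 0.0563) and Rbl1 (0.65, limma adjusted p = 0.241) were not called. In these groups the livers outside the 238 series are the same as the keratin-bearing ones, so series and keratin cannot be told apart. Both fits differ only through the other livers fitted with them, and are not separate checks.

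**Figure D2:**
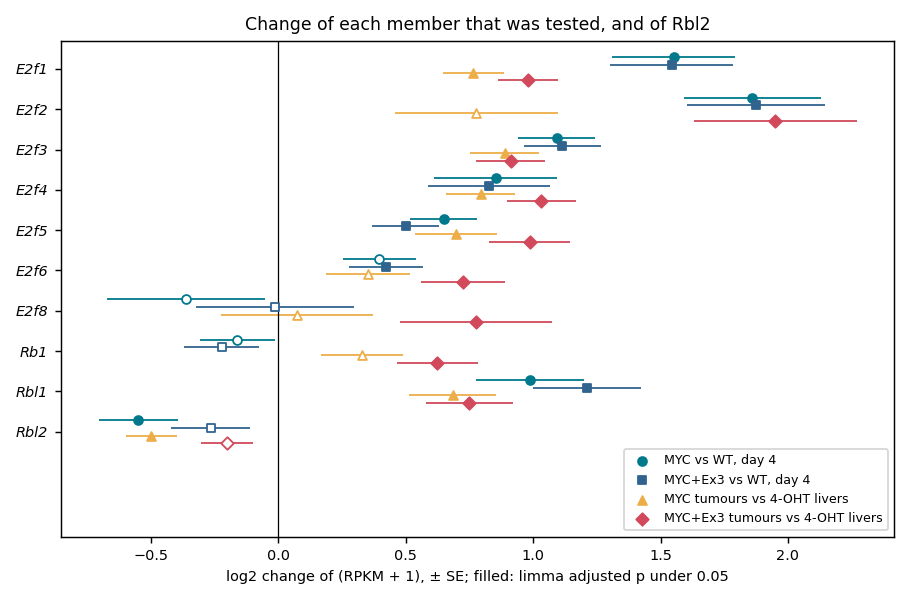
Log2 change of RPKM + 1 (x axis, ± SE) of the 9 members tested and of Rbl2, a pocket protein outside the family as defined (y axis), in MYC and MYC+Ex3 livers against wild type and in MYC and MYC+Ex3 tumours against 4-OHT livers. Filled points passed limma at an adjusted p under 0.05, and E2f8 and Rb1 are filled for MYC+Ex3 tumours alone.

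The genes that work with the family were described from lists, by counts and medians, beside the 16.9% of all genes tested that rose in MYC livers. Of the dimer partners, Tfdp1 rose in MYC livers from 17.2 ± 3.09 to 58.6 ± 18.3 RPKM (SD, n = 5), a log2 change of 1.68 (limma adjusted p = 5.51e-06). Tfdp2 had a change of -0.16 (limma adjusted p = 0.638). Of the 8 cyclins and kinases that act on pocket proteins, 5 rose in MYC livers and none fell: Ccne1 (2.07), Ccne2 (1.48), Cdk6 (1.17), Cdk4 (1.07) and Cdk2 (0.60). The D cyclins had changes of 0.46 for Ccnd1, -0.22 for Ccnd2 and 0.17 for Ccnd3, and did not pass. Of 7 CDK inhibitors 5 could be tested, and Cdkn2c (p18) was the 1 that rose, by 1.45. Cdkn1a (p21) had a change of 1.41 without passing (limma adjusted p = 0.061) and passed in MYC+Ex3 livers (1.54, limma adjusted p = 0.0399).

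Among partners of the repressor members, Lin9 (0.73) and Lin54 (0.63) were the 2 of 6 genes of the MuvB core and B-Myb that rose in MYC livers. Of the 8 partners of E2f6 in its Polycomb complex 4 rose: L3mbtl2 (0.95), Pcgf6 (0.82), Wdr5 (0.49) and Mga (0.41). With the title number series as a block 1 of the 6 MuvB genes and 1 of the 8 partners of E2f6 were called. In that fit 1451 of all 13688 genes were called higher and 217 lower. The list counts were near that share. In MYC+Ex3 livers Rybp of that list fell by 0.34 (limma adjusted p = 0.0401). A list of 8 genes for cyclin and degradation control of E2F activity included Trp53, which is neither a cyclin nor a degradation factor. Of this list 5 rose in MYC livers, led by Cdc20 at 4.53, with Skp2 at 1.25, Trp53 at 1.14, Mdm2 at 0.82 and Ddb1 at 0.23.

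Most E2F target genes of G1 and S phase rose with MYC. In MYC livers 31 of 34 rose and none fell, with a median log2 change of 1.35 against 0.07 for all genes. Mcm10 and Mybl2 were among those that did not pass. Ccna2 (cyclin A2) went from 1.82 to 46 RPKM (log2 change 4.00), Cdk1 from 1.17 to 27 RPKM (3.61), and the replication helicase subunits Mcm5 and Mcm6 changed by 3.23 and 2.85. In MYC+Ex3 livers 32 of 34 rose (median 1.61), and against Ex3 livers 30 of 34 (median 1.30), or 15 of 33 outside the 238 series. Ex3 livers had 0 of 34 called and a median of 0.31 against 0.01 for all genes, with changes from -0.26 to 1.19, and the median was -0.07 with the title number series as a block. MYC+Ex3 against MYC livers had 0 called and a median of 0.13. In MYC livers 2 of 8 hepatocyte and 2 of 7 endothelial markers fell, and 1 of 8 macrophage and 2 of 7 stellate cell markers rose. The part of these cell types in the members' and targets' values was not tested.

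**Figure D3:**
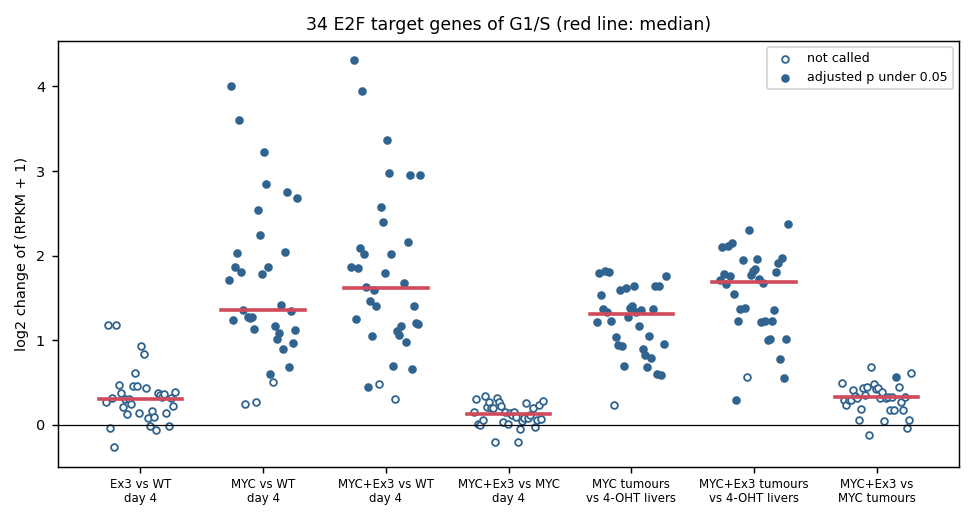
Log2 change of RPKM + 1 (y axis) of the 34 E2F target genes in 7 comparisons (x axis), 1 point per gene, filled where limma gave an adjusted p under 0.05, with a red line at the median. The medians were 1.35 in MYC livers and 1.31 in MYC tumours, against 0.31 in Ex3 livers.

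Across the 20 short-term livers, the genes whose log2 RPKM followed each member most closely differed between members. By Pearson's r these were Mcm2, Mcm3 and Fen1 for E2f1 (r = 0.94), all replication genes, and for Rbl1 they included Kif15 and Uhrf1 (r = 0.96 to 0.97). Those of E2f3 included Rbm38 and Cdc25a (r = 0.97 to 0.98), and E2f5 had Naa15, Dhx15 and Brix1 (r = 0.95 to 0.96). Those closest to E2f8 (Bbs9, S1pr3 and Amt) reached at most 0.79, and those to Rb1 (Rock1, Rc3h2 and Rasa1) at most 0.82. These values are descriptions over libraries that share differences of group, keratin transcripts and title number series.

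In tumours the family was compared with 4-OHT livers. In MYC tumours E2f1, E2f3, E2f4, E2f5 and Rbl1 rose and no member fell, which made 5 of the 9 members tested where 49.8% of 11854 genes were called (36.2% higher, 13.7% lower). In MYC+Ex3 tumours all 9 members tested rose, where 60.6% of genes were called (42.3% higher, 18.4% lower). The median of all genes was itself shifted by 0.19 and 0.23, and that of the members tested was 0.70 and 0.91. After rescaling by the median ratio the split of all called genes went from 4286 higher and 1621 lower to 3050 and 3124 in MYC tumours, and from 5011 and 2178 to 3704 and 3621 in MYC+Ex3 tumours. Of the members 5 and 8 were then called, with E2f8 lost. Both comparisons share the 7 control livers.

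**Figure D4:**
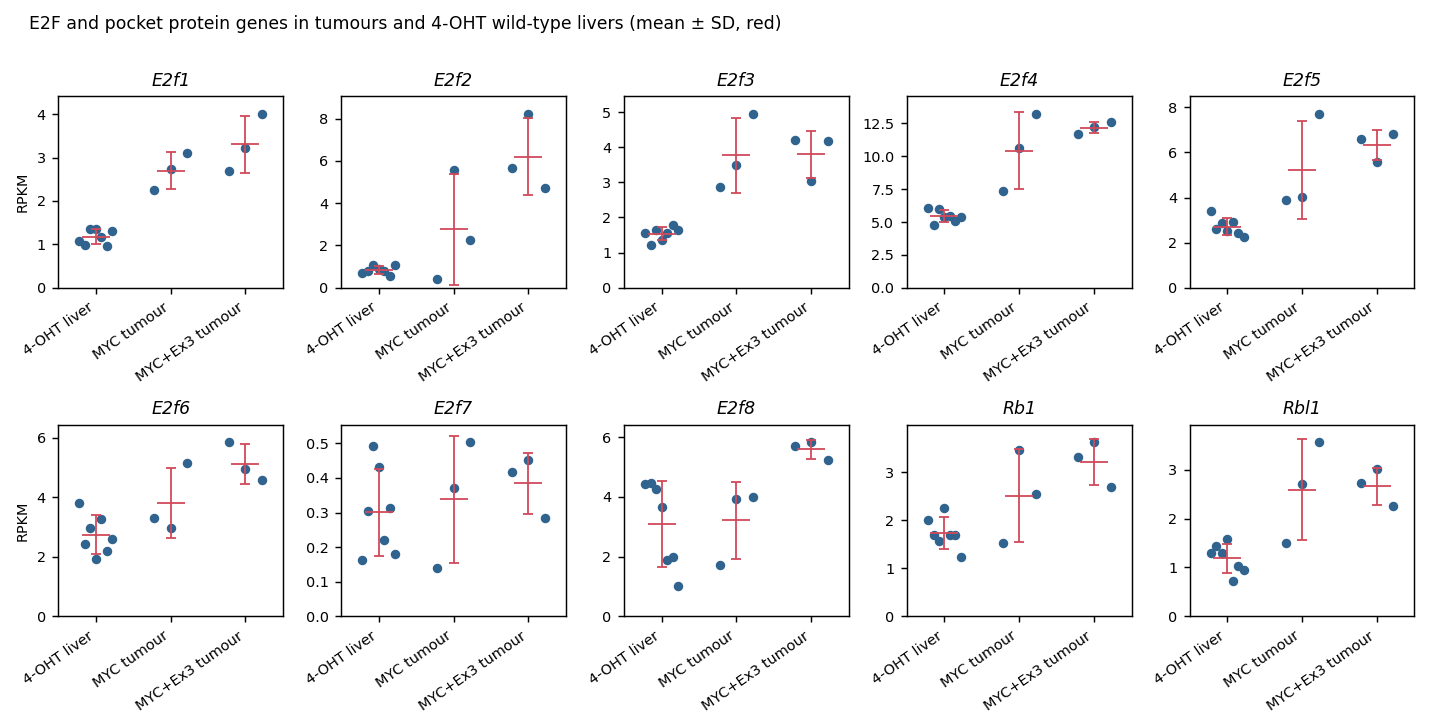
RPKM of each member (y axis, from 0) in the 7 4-OHT livers, 3 MYC tumours and 3 MYC+Ex3 tumours (x axis), 1 point per library, with red bars for mean ± SD. E2f1, E2f3, E2f4 and E2f5 of all 6 tumours lay above all 4-OHT livers, whereas E2f2 of the MYC tumours ran from 0.424 to 5.59 RPKM.

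Of the activators, E2f1 had 0.953, 1.16 and 1.37 RPKM as the lowest, median and highest of the 4-OHT livers. It had 2.25, 2.74 and 3.11 RPKM in MYC tumours and 2.69, 3.22 and 4.01 in MYC+Ex3 tumours. All tumours lay above all livers, with log2 changes of 0.77 and 0.98 (limma adjusted p = 0.000156 and 1.01e-05). E2f3 had 1.23, 1.57 and 1.78 RPKM as the lowest, median and highest in livers, 2.86, 3.49 and 4.95 in MYC tumours and 4.19, 3.03 and 4.17 in MYC+Ex3 tumours. Here too no tumour overlapped with a liver, and the log2 changes were 0.89 and 0.91 (limma adjusted p = 0.000129 and 5.2e-05). The share of all genes without such overlap was not counted, so a gap is not shown to be particular to the family.

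Relative to its mean, E2f2 varied most of the members tested among MYC tumours. Livers had 0.542, 0.809 and 1.1 RPKM as lowest, median and highest, MYC tumours 0.424, 5.59 and 2.28, and MYC+Ex3 tumours 5.67, 8.23 and 4.72. MYC tumour replicate 1 thus lay below every liver, whereas each MYC+Ex3 tumour lay above them all. The log2 change was 0.78 in MYC tumours and did not pass (limma adjusted p = 0.0557), and was 1.95 in MYC+Ex3 tumours (limma adjusted p = 0.000124). In the authors' deposited table the MYC tumours had a change of 1.33 with an adjusted p of 0.0118. Without MYC tumour replicate 1 the change was 1.35 and passed (limma adjusted p = 0.000262), and without replicate 2 it was 0.24 (limma adjusted p = 0.444).

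Neutrophil and erythroid markers, though not all blood cell markers, moved with E2f2 in the tumours. The neutrophil markers, of which 4 were measured, summed to 10.2, 80.9 and 45.6 RPKM in MYC tumours, 92.7, 113 and 88.6 in MYC+Ex3 tumours and 9.47 to 27.9 in livers, and 2 and 4 of the 4 were called higher in the respective tumours. The erythroid markers, of which 6 were measured, summed to 11.1, 73.1 and 15.5 RPKM in MYC tumours, 76.5, 88.6 and 69 in MYC+Ex3 tumours and 14 to 31.8 in livers, with 0 and 6 of 6 called higher. None of these markers was at 0 throughout a group. The genes closest to E2f2 over the 13 libraries were Steap1, Camp and Mpo (r = 0.98), and Camp and Mpo encode neutrophil granule proteins. Mpo is also in the neutrophil list. Their part in the E2f2 values was not tested. MYC tumour replicate 3, at 2.28 RPKM of E2f2, had an erythroid sum of 15.5 RPKM, within the livers. Of 3 T, B and NK cell markers tested, 0 were called in MYC tumours and 2 fell in MYC+Ex3 tumours. In the short-term comparisons with MYC, 0 of 4 neutrophil and 0 of 3 tested erythroid markers were called.

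**Figure D5:**
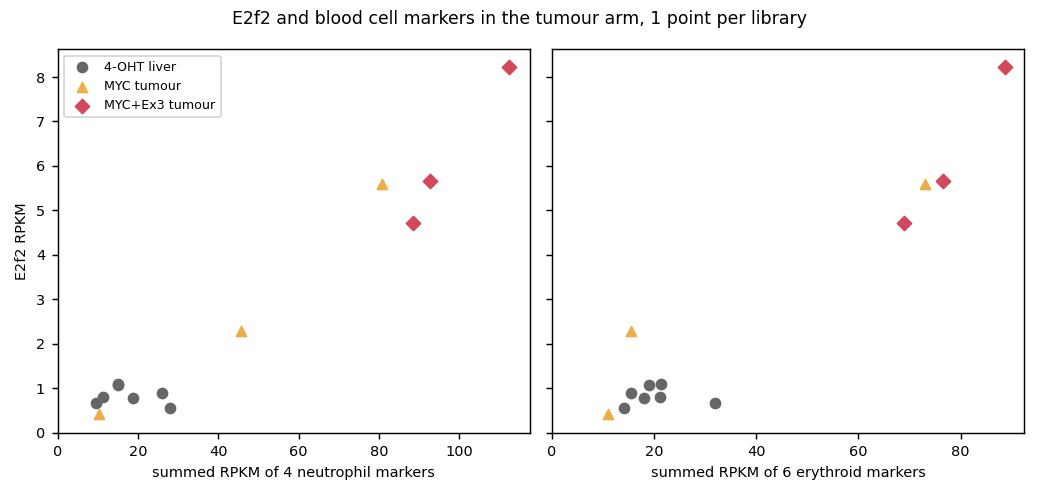
E2f2 RPKM (y axis) against the summed RPKM of 4 neutrophil markers (left) and 6 erythroid markers (right), 1 point per library of the tumour arm. The MYC tumour with 0.424 RPKM of E2f2 had a neutrophil sum of 10.2 RPKM, within the range of the livers, and an erythroid sum of 11.1 RPKM, below it. The MYC tumour with 2.28 RPKM of E2f2 had a neutrophil sum of 45.6 RPKM, above the livers, and an erythroid sum of 15.5 RPKM, within their range.

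E2f4 was the most abundant member in the tumour arm. Livers had 4.77, 5.42 and 6.06 RPKM as lowest, median and highest, MYC tumours 7.37, 10.7 and 13.2, and MYC+Ex3 tumours 11.7, 12.2 and 12.6. No tumour overlapped with a liver, with changes of 0.79 and 1.03 on the log2 scale (limma adjusted p = 0.000315 and 1.86e-05). E2f5 had 2.27 to 3.38 RPKM in livers, 3.9, 4.03 and 7.71 in MYC tumours and 6.61, 5.59 and 6.83 in MYC+Ex3 tumours. Its log2 changes were 0.70 and 0.99 (limma adjusted p = 0.00268 and 0.000118). Without MYC tumour replicate 3 the first was 0.43 (limma adjusted p = 0.0158).

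E2f6 had 1.93 to 3.82 RPKM in livers, 3.29, 2.97 and 5.16 in MYC tumours and 5.86, 4.94 and 4.58 in MYC+Ex3 tumours. MYC tumours overlapped with livers (0.35, limma adjusted p = 0.0902), whereas MYC+Ex3 tumours lay above them (0.72, limma adjusted p = 0.00168). The MYC tumours passed without 4-OHT liver replicate 1 (limma adjusted p = 0.0388) or without MYC tumour replicate 2 (a change of 0.48), and their change was 0.16 without replicate 3.

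E2f8 divided the control livers. The 4 livers whose title numbers begin with S14 had 4.42, 4.48, 4.27 and 3.65 RPKM and the 3 whose numbers begin with S15 had 1.88, 1.99 and 1.02. The labels do not say what these numbers stand for. MYC tumours had 1.7, 3.95 and 3.99 RPKM and MYC+Ex3 tumours 5.72, 5.84 and 5.23, above every liver. The change was 0.07 in MYC tumours (limma adjusted p = 0.855), with values of -0.36 against S14 livers and 0.65 against S15 livers. It was 0.77 in MYC+Ex3 tumours (limma adjusted p = 0.0359), but 0.34 and not called against S14 livers (limma adjusted p = 0.164) and 1.35 against S15 livers (limma adjusted p = 0.00157). The call was also lost without 4-OHT liver replicate 5 or 6 and without any of the MYC+Ex3 tumours. In the authors' deposited table its adjusted p was 0.102. E2f7 stayed at or under 0.504 RPKM in all 13 libraries, and its exact permutation p was 0.717 in MYC and 0.367 in MYC+Ex3 tumours (3 against 7).

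Among pocket proteins, Rbl1 had 0.725 to 1.58 RPKM in livers, 1.51, 2.71 and 3.57 in MYC tumours and 2.73, 3.01 and 2.26 in MYC+Ex3 tumours. MYC tumour replicate 1 lay within the livers, and the log2 changes were 0.68 and 0.75 (limma adjusted p = 0.00452 and 0.00168). Rb1 had 1.23 to 2.26 RPKM in livers, 1.52, 3.46 and 2.54 in MYC tumours and 3.31, 3.63 and 2.69 in MYC+Ex3 tumours. It did not pass in MYC tumours (0.33, limma adjusted p = 0.101), passed there without replicate 1 (0.55, limma adjusted p = 0.00631), and rose in MYC+Ex3 tumours (0.62, limma adjusted p = 0.00368). Over the 13 libraries the genes closest to Rb1 were Trem3, Nfe2 and Cd247 (r = 0.95 to 0.96). Within each kind of tumour the 3 nodules had the same order in Rb1 as in the erythroid and neutrophil sums and in E2f2 above. The part of these cell types in the Rb1 values was not tested. Rbl2 fell by 0.50 in MYC tumours (3.23, 3.18 and 2.69 against 4.04 to 5.49 RPKM, limma adjusted p = 0.00119). Its change in MYC+Ex3 tumours was -0.20 (limma adjusted p = 0.101), and -0.44 with a call after rescaling (limma adjusted p = 0.000339). In the authors' deposited table Rbl2 was lower in MYC+Ex3 tumours by -0.47, with an adjusted p of 1.09e-07.

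Other cell types also moved in the tumours. Of the 8 macrophage markers measured, 6 fell in MYC and 5 in MYC+Ex3 tumours, and their sum was 121 to 163 RPKM in livers, 39.6 to 132 in MYC tumours and 67.6 to 79.8 in MYC+Ex3 tumours. Of 7 endothelial markers, 5 fell in each, with sums of 42.9 to 71.7, 24 to 39.6 and 25.7 to 30.2 RPKM. Of 8 hepatocyte markers, 1 fell in MYC and 4 in MYC+Ex3 tumours. None of these markers was at 0 throughout a group. Of 7 stellate cell and fibroblast markers, 4 rose and 2 fell in MYC tumours, and 2 rose and 3 fell in MYC+Ex3 tumours. Their part in the members' changes was not tested.

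MYC+Ex3 tumours were compared with MYC tumours for the added effect of β-catenin. Of the 9 members tested 0 passed, where 4.13% of genes did (2.02% higher and 2.1% lower by limma, 489 of 11854, with 2089 at an unadjusted p under 0.05), and the authors' deposited table called 0 members as well. E2f2 had the widest difference at 1.17 (95% interval 0.37 to 1.98, limma adjusted p = 0.105), and E2f8 differed by 0.70 (limma adjusted p = 0.325) without overlap between the 3 tumours of each kind. Without MYC tumour replicate 2, which had the highest neutrophil and erythroid sums of the MYC tumours, E2f2 passed, at 1.71 (limma adjusted p = 0.00199). Of the markers, 2 of 4 neutrophil and 1 of 6 erythroid genes were called higher in MYC+Ex3 than in MYC tumours, and their part in this difference was not tested. Without replicate 3 E2f5 passed, at 0.56 (limma adjusted p = 0.0322).

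The lists moved in the tumours as follows, where 36.2% of all genes tested rose in MYC and 42.3% in MYC+Ex3 tumours. Tfdp1 rose by 1.22 in MYC and 1.5 in MYC+Ex3 tumours, and Tfdp2 by 0.93 and 1.52, with 6.03 ± 1.32 and 9.46 ± 0.425 RPKM (SD, n = 3) against 2.66 ± 0.458 in livers (SD, n = 7). Between tumours Tfdp2 was higher by 0.59 with MYC+Ex3 (limma adjusted p = 0.0498). Of the 8 cyclins and kinases 6 rose in MYC tumours, led by Ccne1 (2.17) and Cdk4 (1.06), and Ccnd1 (-1.19) and Ccnd2 (-0.38) fell. In MYC+Ex3 tumours 6 rose and Ccnd2 alone fell. All 4 CDK inhibitors that could be tested rose in both: Cdkn1c (p57) by 1.74 and 2.93, Cdkn1a by 0.99 and 1.39, Cdkn2c by 0.66 and 0.89 and Cdkn1b by 0.58 and 0.64.

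Mybl2 (B-Myb), at 0.224 RPKM in livers, rose by 1.36 and 1.67, and 4 of the 6 genes of its MuvB list rose in each kind of tumour. Of the partners of E2f6, 6 and 7 of 8 rose, led by Pcgf6 at 1.12 and 1.55. Of the 8 genes of the list for cyclin and degradation control, which includes Trp53, 5 and 7 rose. E2F targets were higher in 33 of 34 cases in MYC tumours (median 1.31) and in 33 of 34 in MYC+Ex3 tumours (median 1.69, Mcm10 not called). Cdca7 (1.82 and 2.11), Cdt1, a licensing factor (1.80 and 2.15), and Uhrf1 (1.76 and 2.38) were among the largest. After rescaling the medians were 1.07 and 1.5. Between the tumours 1 of 34 passed, Rfc3.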

How the data were processed

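The submitters' processing notes name TopHat2 2.0.8, SAMtools, featureCounts 1.4.5-p1, DESeq2 and the build mm9, without settings. The deposited table holds RPKM per gene and library, computed by the authors. It also holds the authors' log2 fold changes and adjusted p-values for their own comparisons, per the file headers, which are used here only where named. Within a gene RPKM were whole multiples of 1 read, and reads were recovered for 100% of the 20485 genes above 0 (tolerance 0.02 reads). They were used for depth. 0 columns belonged to other samples.

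Libraries were grouped by title. Replicate numbers follow record order and pair no mice. The 20 short-term and the 13 tumour-arm libraries were fitted separately in limma 3.58.1 (R 4.3.3), after log2(RPKM + 1) transformation. Variances were moderated with a mean trend, tests were two-sided, and p-values were adjusted over all genes tested by Benjamini-Hochberg. A gene was tested when RPKM reached 1 in 3 libraries, and called at an adjusted p under 0.05. E2f7 failed this filter in both arms and got an exact permutation test in SciPy 1.17.1. The script was tested on simulated data. Overlap of values between groups was checked for the members and a few other named genes, and its share over all genes was not counted. A library counted as keratin-bearing when Krt5, Krt14 and Krt17 summed to over 1 RPKM. All members are named, with Myc, Ctnnb1 and genes of 7 lists. A few genes of the lists and of the closest genes are not reported here. The members, lists and tests were chosen with earlier results of these data known. Alternatives were a pseudocount of 0.1, no filter, a filter at RPKM 5, rescaling by the median ratio, and sex or keratin as a covariate. Further alternatives were fits within keratin-free or keratin-bearing libraries, or of only the groups compared. Either set of 4-OHT livers was also used alone, and each library was left out in turn. Chosen after seeing the data were the title number series as a block and fits outside the 238 series.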

Additional observations from a re-analysis of the deposited data

Results flagged for a closer look

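Of 50 sets of values from groups of 5 or 7 livers, 3 had 1 library set apart from the rest by Dixon's criterion, and chance gives about 1 in 20. They were E2f1 in wild-type liver replicate 1 (4.36 RPKM), E2f6 in MYC+Ex3 liver replicate 4 (22.9 RPKM) and E2f8 in MYC liver replicate 3 (13 RPKM).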

How the results depend on the processing

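Replicate numbers only follow the order of the records and were not used to pair livers. As alternatives chosen after seeing the data, the title number series of the short-term livers were used as a block, in which the 3 livers alone in their series add nothing, or series 238 was left out. Members called were 6 with the block in MYC livers, in MYC+Ex3 livers and against Ex3 livers, and 6, 6 and 3 outside series 238, which left fewer livers. Over all 13688 genes tested the block gave 1451 rises and 217 falls in MYC livers. It gave 1915 and 760 in MYC+Ex3 livers, and 2190 and 880 against Ex3 livers. Outside series 238, over 13444 genes, there were 1675 rises and 277 falls in MYC livers. There were 1265 and 160 in MYC+Ex3 livers, and 754 and 26 against Ex3 livers. Members called stayed within 1.5 times their count in the other settings except with a filter at RPKM 5, where 4 members were tested and 2 were called in MYC tumours and 4 in MYC+Ex3 tumours, and in MYC+Ex3 against MYC tumours, where leaving out a library gave 0 to 1. Leaving out a library gave 6 to 7 in MYC livers, 5 to 7 in MYC+Ex3 livers, 5 to 7 against Ex3 livers, 5 to 7 in MYC tumours and 8 to 9 in MYC+Ex3 tumours. Changes of sign were limited to uncalled changes. Rb1 in MYC livers was 0.0858 within keratin-free libraries, and against Ex3 livers -0.0444 after rescaling and -0.0394 to 0.0800 with a library left out. E2f8 in MYC+Ex3 livers was 0.00583 with a pseudocount of 0.1, 0.0339 with sex as covariate, 0.11 within keratin-bearing libraries and -0.37 to 0.19 with a library left out. Against Ex3 livers it was 0.00643 within keratin-free libraries and -0.20 to 0.0347 with one left out. E2f8 in MYC tumours was -0.11 after rescaling and -0.0818 to 0.37 with a library left out. Its sign depended on the control set, at -0.36 against S14 livers and 0.65 against S15 livers. The cause was not tested. E2f2 in MYC livers rested on 3 to 33 reads in wild type.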
